A study of Homo sapiens with 3 samples.

Results

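Clusters of C-to-U editing were examined in the nuclear-encoded genes of the mitochondrial respiratory chain, in human embryonic kidney cells that expressed RBFOX2 fused to the cytidine deaminase APOBEC1. Genes were chosen by symbol alone: nuclear genes for subunits of complexes I to V (NDUF, SDH, UQCR, COX and ATP5 symbols), CYC1, which encodes cytochrome c1 of complex III, CYCS, which encodes cytochrome c, and the assembly factors that share these name stems, with symbols of pseudogenes left out. These genes held 109, 132 and 106 clusters in replicates 1, 2 and 3, out of 14295, 15181 and 11367 clusters in all. Over the 3 replicates this gave 347 of 40843 clusters, in 74 of the 9904 gene names that carried a cluster. A cluster here is a stretch of RNA in which FLARE, the authors' caller, found more editing than its background model gave for exons or introns of that read depth, and its edit fraction is the share of edited bases among all C bases that reads covered in it.

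The study used STAMP, in which an RNA-binding protein carries APOBEC1 to its targets and the enzyme leaves C-to-U changes near the bound sites, so that binding is read from ordinary RNA sequencing. The 3 libraries form 1 group: HEK293T cells of genotype WT, named HEK293XT in the source label, in which doxycycline induced the RBFOX2-APOBEC1 fusion for 72 h before polyA RNA was prepared. The labels give the treatment as a transient transfection while the growth notes describe stable lines made from lenti-X cells, and the kit as TruSeq stranded mRNA or total RNA, so neither point is settled. No library without the fusion, or with APOBEC1 alone, was analysed here. Editing that does not depend on RBFOX2 was therefore not subtracted from any value below. Cell identity was not checked against marker genes, because a list of clusters that passed a threshold does not give expression levels. RNA came from whole cultures, so fewer cells with an edited transcript and fewer edits per cell cannot be told apart.

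The respiratory chain lies in the inner mitochondrial membrane. Complexes I and II pass electrons from NADH and succinate to ubiquinone, complex III passes them on to cytochrome c, and complex IV hands them to oxygen. Complex V, the ATP synthase, uses the resulting proton gradient to make ATP. A few core subunits are encoded in mitochondrial DNA, and all the others, together with the assembly factors, come from nuclear genes. RBFOX2 is a nuclear and cytoplasmic RNA-binding protein known above all as a regulator of alternative splicing.

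Clusters in these genes were deep and their edit fractions were low. The median read depth of a cluster, as deposited, was 162, 101 and 103 reads in replicates 1, 2 and 3 (mean 122 ± 34.4, SD, n = 3), against 25.1, 24.7 and 21.1 reads over all clusters. A depth of at least 50 reads was reached by 81 clusters (74.3%) in replicate 1, 88 (66.7%) in replicate 2 and 71 (67.0%) in replicate 3, where the background over all clusters was 29.1%, 27.9% and 24.6%. The median edit fraction was 0.879%, 0.942% and 0.849% (mean 0.890% ± 0.0477, SD, n = 3), against 1.64%, 1.65% and 1.80% over all clusters. The medians of the respiratory chain genes did not overlap those of all clusters. Clusters were of ordinary size, with a median length of 45 bases in both sets and a median of 8 C bases against 9. Of all clusters, 0.763%, 0.870% and 0.933% lay in respiratory chain genes in replicates 1, 2 and 3, and these held 1.62%, 1.52% and 1.70% of the edited bases.

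Overlap of clusters between libraries is the measure of reproducibility that follows. Clusters of different replicates that overlapped on the same strand by at least 1 base were merged, in chains where needed, into 244 loci, of which 177 were seen in 1 replicate, 36 in 2 and 31 in all 3. These 31 loci lay in 25 genes and were all annotated as exonic. At 29 of them, in 23 genes, some bases were covered by clusters of all 3 replicates, while at the loci of ATP5L and ATP5J a cluster of 1 replicate overlapped those of the other two, which shared no base with each other. Of the 74 genes, 25 (33.8%) had such a locus, where the background over all gene names, counted in the same way, was 12.9%. The 31 loci held 69.7%, 66.3% and 67.0% of the edited reads of the respiratory chain genes in replicates 1, 2 and 3. Neither this share nor the split of the loci by number of replicates was computed for all clusters, so neither is shown to be particular to these genes. Over all clusters too, recurrence rose with edited reads, from 2.24% at 1 edited read to 80.0% at 11 or more. By role, 5 belonged to subunits of complex I, 1 to complex II, 7 to complex III, 5 to complex IV, 9 to complex V and 4 to assembly factors, while cytochrome c had none. Positions below are those of the deposited clusters on genome build hg19, from the lowest start to the highest end over the replicates, and the files do not say whether the start is counted from 0.

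**Figure D1:**
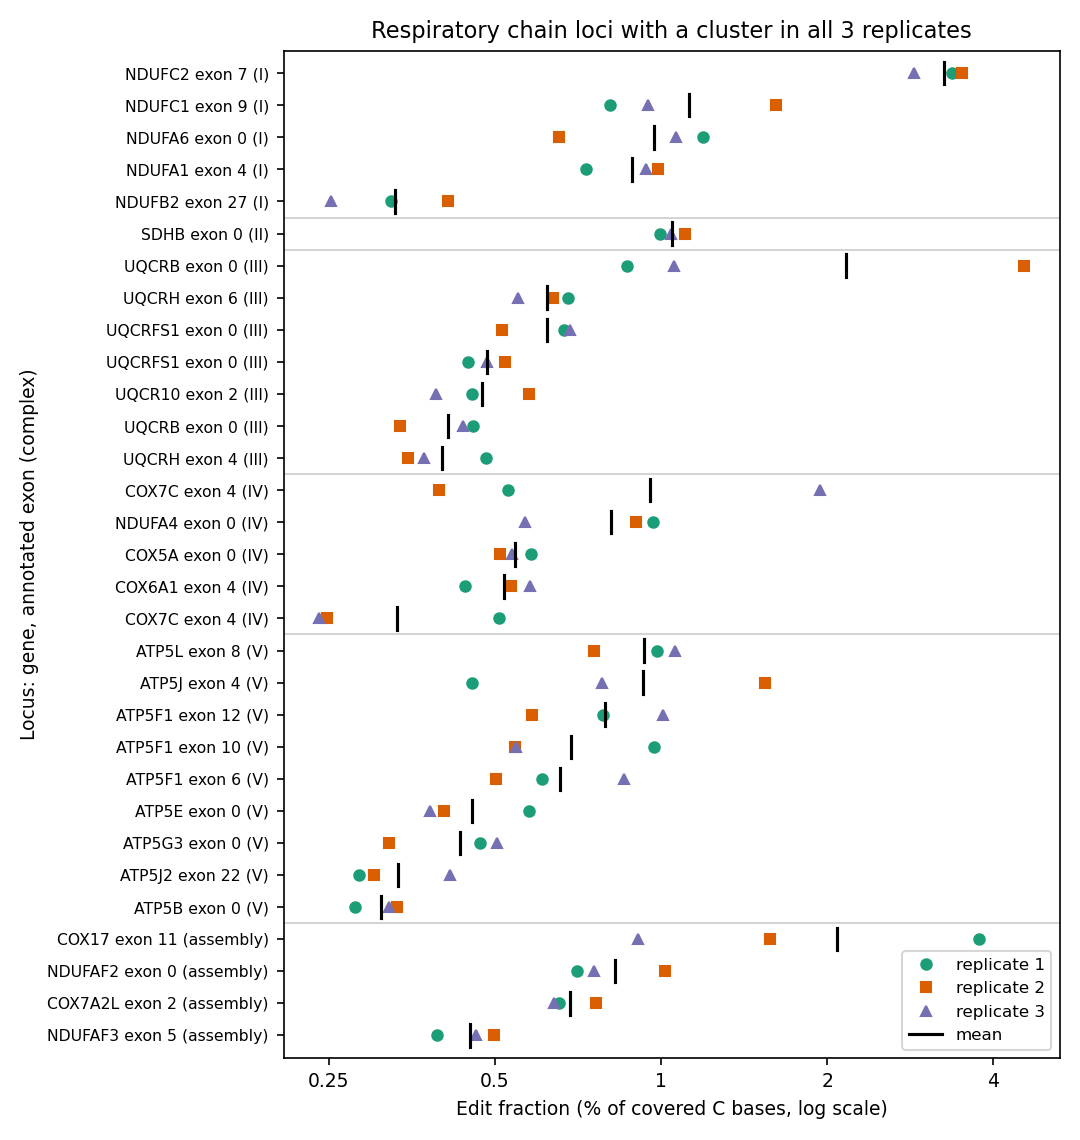
Edit fraction (percent of covered C bases, log axis) of the 31 respiratory chain loci linked by overlap over all 3 replicates, grouped by complex, with 1 symbol for each replicate and a bar for the mean. The means of most loci lie under 1%, and the 3 replicates lie close together at SDHB, COX5A and ATP5B and far apart at UQCRB, COX17 and the downstream COX7C locus.

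In complex I, the recurring loci lay in accessory subunits, which surround the catalytic core. NDUFC2, a subunit of the membrane arm, had the highest mean edit fraction of all 31 loci, with 3.36%, 3.51% and 2.88% in replicates 1, 2 and 3 (mean 3.25% ± 0.33, SD, n = 3) at chr11:77780205-77780310 on the minus strand. That level rested on few reads, since 20, 14 and 11 reads covered the locus and 2, 1 and 4 of them were edited. NDUFA1, another accessory subunit, carried the most edited reads of complex I, with 52 of 819, 50 of 624 and 39 of 552 reads edited at chrX:119010477-119010582 on the plus strand. Its edit fractions were 0.732%, 0.985% and 0.939%, so a locus with far more edited reads than NDUFC2 had a lower edit fraction in every replicate. The other 3 were NDUFC1 (0.807%, 1.61% and 0.946%), NDUFA6 (1.19%, 0.654% and 1.07%) and NDUFB2 (0.324%, 0.412% and 0.252%). Of the subunits of the catalytic core, NDUFS1 had clusters in 3 replicates, NDUFV2 in 2, and NDUFS3 and NDUFV1 in 1, whereas NDUFS7 and NDUFS8 had none.

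All 4 subunits of complex II, succinate dehydrogenase, had clusters in all 3 replicates, 26 clusters together. Only in SDHB, the iron-sulfur subunit, did a locus recur at the same place in all 3. At chr1:17345262-17345427 on the minus strand, SDHB had edit fractions of 0.995%, 1.10% and 1.04% from 20, 6 and 13 edited bases in 2010, 544 and 1246 covered C bases (mean 1.05% ± 0.0541, SD, n = 3). These 3 values lay within a narrow range although replicate 2 had far fewer covered bases than replicate 1. In SDHC, a membrane anchor, all 6 clusters fell in the same annotated exon but no place was shared by all 3 libraries, and in SDHD, the other anchor, the same held for 8 of 9 clusters. SDHA, the flavoprotein that oxidises succinate, had 4 clusters, 3 of them in the same exon.

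Complex III gave 7 recurring loci in 4 genes, and UQCRH led all respiratory chain genes in edited reads. UQCRH, the hinge protein at the cytochrome c side of the complex, summed to 378 edited reads, with 149, 147 and 82 in replicates 1, 2 and 3. Its locus at chr1:46782224-46782448 had edit fractions of 0.678%, 0.637% and 0.550% (mean 0.622% ± 0.0652, SD, n = 3), and its upstream locus at chr1:46775899-46775988 had 0.483%, 0.349% and 0.372% (mean 0.401% ± 0.0716, SD, n = 3), both on the plus strand. In edit fraction the downstream locus was above the upstream one in every replicate, and the 2 sets of values did not overlap. In the share of edited reads that order was not kept, with 3.94%, 5.54% and 4.09% downstream against 5.09%, 3.74% and 3.04% upstream. Mean depth was 688, 481 and 434 reads downstream against 1006, 1038 and 906 upstream, and its part in the difference was not tested. UQCRFS1, the Rieske iron-sulfur protein that takes electrons from ubiquinol, also had 2 loci within the same exon on the minus strand, with 0.666%, 0.516% and 0.684% at chr19:29698383-29698533 and 0.446%, 0.523% and 0.484% at chr19:29698728-29698833. There the order was not kept, since replicate 2 was higher at the second of these loci. UQCR10, a small subunit, had 0.454%, 0.577% and 0.391%. UQCRB, a ubiquinone-binding subunit, had 1 locus with edit fractions of 0.456%, 0.337% and 0.438%. It had 1 more that was 0.869% and 1.06% in replicates 1 and 3 but 4.55% in replicate 2, the highest value at any of the 31 loci. In replicate 2 the latter rested on 22 edited bases from 9 edited reads, in 483 covered C bases.

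In complex IV, cytochrome c oxidase, the 5 recurring loci had means from 0.332% to 0.954%. COX6A1, a subunit of the membrane part, summed to 310 edited reads, and at chr12:120878374-120878494 on the plus strand 89 of 2352, 104 of 2217 and 93 of 1941 reads were edited. Its edit fraction there was 0.442%, 0.535% and 0.578% (mean 0.518% ± 0.0697, SD, n = 3). The processed pseudogene COX6A1P2 carried clusters of its own in all 3 replicates, so how reads were split between the 2 genes is uncertain. COX5A, which faces the matrix, had 0.582%, 0.510% and 0.537% at chr15:75212702-75212777 on the minus strand, and the 3 clusters had the same start and end. NDUFA4, first assigned to complex I and since placed in complex IV (RefSeq now names it COXFA4), summed to 272 edited reads and had 0.967%, 0.899% and 0.566% at chr7:10973078-10973273 on the minus strand. Edited reads made up 9.65% and 9.78% of the reads at that locus in replicates 1 and 2 and 5.29% in replicate 3. COX7C, a small membrane subunit, had 2 loci on the plus strand whose annotation also names the microRNA gene MIR3607. Both loci carry the same label, which does not show that either lies in the microRNA precursor. The position of the precursor was not checked. At chr5:85916505-85916595 its values were 0.528%, 0.395% and 1.94%, and at chr5:85915260-85915335 they were 0.508%, 0.248% and 0.240%. In each of these loci 1 replicate stood well above the other two, replicate 3 in the former and replicate 1 in the latter.

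Complex V gave the most recurring loci, several of them with low edit fractions. ATP5B, the catalytic beta subunit, had the lowest mean of the 31 loci, with 0.279%, 0.332% and 0.322% (mean 0.311% ± 0.0284, SD, n = 3) at chr12:57032064-57032109 on the minus strand, where 1398, 1250 and 1047 reads lay. NDUFB2 of complex I and the upstream COX7C locus were next lowest, with means of 0.329% ± 0.0799 and 0.332% ± 0.153 (SD, n = 3), and the values of these 3 loci overlapped. ATP5E, the epsilon subunit of the central stalk, summed to 141 edited reads and had 0.575%, 0.404% and 0.382%. ATP5F1, the b subunit of the peripheral stalk, was the only gene with 3 recurring loci, in the features numbered 6, 10 and 12, with means of 0.655% ± 0.182, 0.687% ± 0.247 and 0.793% ± 0.213 (SD, n = 3). Their values overlapped, with ranges of 0.501% to 0.855%, 0.543% to 0.973% and 0.583% to 1.01%. ATP5L, a membrane subunit, had 0.983%, 0.758% and 1.06%, where the clusters of replicates 1 and 2 lay side by side without overlap. ATP5G3, which encodes the c subunit of the rotor ring, had 0.471%, 0.322% and 0.504%. ATP5J2, the f subunit, had 0.283%, 0.303% and 0.415%. ATP5J, coupling factor 6 of the peripheral stalk, ranged more widely, with 0.455%, 1.54% and 0.783%. Its highest value came from 4 edited bases, and the clusters of replicates 2 and 3 shared no base.

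Among assembly factors, COX17, the copper chaperone of complex IV, had the third highest mean after NDUFC2 and UQCRB, with 3.77%, 1.57% and 0.909% (mean 2.08% ± 1.49, SD, n = 3) at chr3:119388418-119388512 on the minus strand. The highest of these came from 9 edited bases in 239 covered C bases, against 14 in 890 and 6 in 660 in the other replicates. NDUFAF2 and NDUFAF3, assembly factors of complex I, had 0.704%, 1.02% and 0.755%, and 0.392%, 0.498% and 0.462%. COX7A2L, which takes part in the assembly of supercomplexes, had 0.652%, 0.763% and 0.640%. Replicate 2 was the highest at these last 3 loci. CYCS, which encodes the soluble electron carrier cytochrome c, had 80 edited reads in 12 clusters, 10 of them in the feature numbered 0, yet no place was shared by all 3 libraries.

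The spread between replicates varied among these loci, with a ratio of the highest to the lowest replicate from 1.11 at SDHB to 5.24 at 1 UQCRB locus. All 31 had been called in every replicate, and such ratios were not taken over the recurring loci of the whole series. At 17 of the 31 the highest replicate was under 1.5 times the lowest, and at 5 it was at least 2 times the lowest: the UQCRB and COX17 loci named above, both COX7C loci and ATP5J. At each of those 5 the highest edit fraction was in the replicate with the fewest covered C bases, as it was at 12 of the 31 loci in all. The clusters of a locus also differ in extent between replicates. What part coverage and extent have in these differences was not tested. The highest value fell in replicate 1 at 10 loci, in replicate 2 at 13 and in replicate 3 at 8. An exact conditional test, two-sided, asked of each cluster with the same start and end in all 3 replicates whether the share of edited reads differed between libraries beyond counting error. It compares libraries and not conditions. Of 174 such clusters in the series 4 (2.30%) were called at a Benjamini-Hochberg adjusted p under 0.05, and 17 had an unadjusted p under 0.05. Of the 3 in respiratory chain genes 0 were called and 0 had an unadjusted p under 0.05. COX5A had 3.65%, 2.97% and 3.88% of reads edited (exact p = 0.551, adjusted p = 1.0). UQCR10 had 2.49%, 3.92% and 2.70% (exact p = 0.248, adjusted p = 0.945), and UQCRB 1.498%, 0.703% and 1.63% (exact p = 0.0995, adjusted p = 0.642). These p-values do not show that the libraries were alike, only that at this depth no difference was detected.

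Summed over all clusters of a complex, the edit fraction differed between complexes by more than the spread between replicates. Edited bases over covered C bases came to 0.726%, 0.669% and 0.728% in complex I (mean 0.708% ± 0.0337, SD, n = 3) and to 0.829%, 0.663% and 0.769% in complex II (0.754% ± 0.0841). Complex III had 0.566%, 0.553% and 0.522% (0.547% ± 0.0229), complex IV 0.556%, 0.518% and 0.486% (0.520% ± 0.0350), and complex V 0.485%, 0.433% and 0.536% (0.485% ± 0.0514). Cytochrome c came to 0.706% ± 0.0773 and the assembly factors to 0.954% ± 0.109. The values of complexes I and II lay above those of complexes III, IV and V in every replicate and did not overlap them. Complexes I and II overlapped each other, and so did complexes III, IV and V. Read depth ran the other way. The mean over replicates of the median depth was 87.9 reads in complex I, 82.9 in complex II and 33.2 in the assembly factors, against 204 in complex III, 546 in complex IV and 256 in complex V. Its part in the order of the complexes was not tested.

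The lower edit fraction of the respiratory chain genes was seen among the deepest clusters, and it was not seen there once coverage was divided more finely. The 24 clusters with a mean depth under 10 reads had a median of 5.15% ± 1.45 (SD, n = 3 replicates), against 5.03% ± 0.134 over all clusters. At depths of 10 to 20 the median was 2.49% ± 0.101 against 2.32% ± 0.0821, and at 20 to 30 it was 1.87% ± 0.180 against 1.65% ± 0.0419. At 30 to 40 it was 1.76% ± 0.116 against 1.39% ± 0.00561, from 13 clusters, and at 40 to 50 it was 1.22% ± 0.0598 against 1.23% ± 0.0246. At a depth of at least 50, which holds 240 of the 347 clusters, it was 0.704%, 0.624% and 0.587% in replicates 1, 2 and 3 (mean 0.638% ± 0.0601), against 0.784% ± 0.00975. The means of the respiratory chain genes were thus above those of all clusters in the classes under 40 reads, level with them at 40 to 50, and below them in the deepest class, where this held in every replicate.

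**Figure D2:**
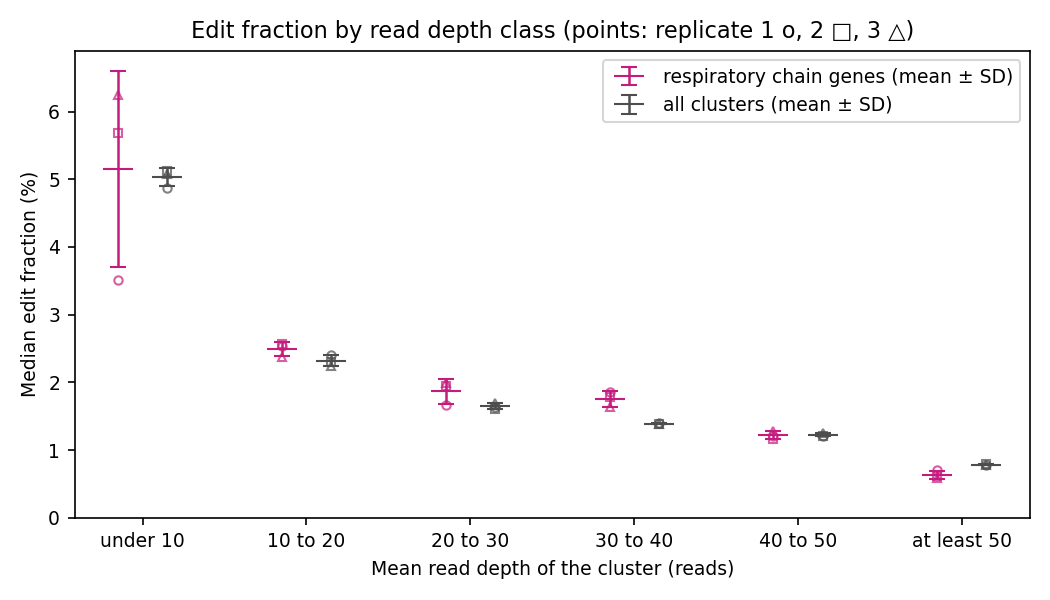
Median edit fraction (percent, y axis) of clusters in 6 classes of mean read depth (reads, x axis), for respiratory chain genes and for all clusters, with a symbol for each replicate and bars for mean ± SD over 3 replicates. Both sets fall from about 5% at a depth under 10 to under 1% at a depth of at least 50, where the respiratory chain genes (0.638%) lie below all clusters (0.784%).

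The deepest class is open at the top, and the respiratory chain clusters in it were the deeper ones: their median depth was 215 ± 28.1 reads against 91.0 over all clusters of that class. Coverage was therefore also taken as covered C bases per C base and split further. At 50 to 100 covered bases per C the median was 0.894% ± 0.126 (SD, n = 3 replicates, 55 clusters) against 0.874% ± 0.00805 over all clusters. At 100 to 200 it was 0.665% ± 0.0577 against 0.663% ± 0.00213, at 200 to 500 it was 0.527% ± 0.0304 against 0.513% ± 0.0156, and at 500 or more it was 0.428% ± 0.0356 against 0.410% ± 0.00789. In these 4 classes the difference was smaller than the SD between replicates of the respiratory chain genes. Below 50 covered bases per C the picture was mixed. At 30 to 40 the respiratory chain genes had 1.86%, 1.78% and 1.98% (mean 1.87% ± 0.102, 13 clusters), above all clusters (1.36% ± 0.0202) in every replicate. At 40 to 50 the median was 1.15% ± 0.0634 against 1.18% ± 0.0211, at 20 to 30 it was 1.76% ± 0.171 against 1.61% ± 0.0328, at 10 to 20 it was 2.36% ± 0.360 against 2.23% ± 0.0608, and under 10 it was 4.37% ± 1.81 against 4.99% ± 0.104.

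The same genes were found again in other libraries more often than most, and the number of edited reads moved with that. A cluster that overlapped clusters of both other replicates was seen for 32 of 109 (29.4%), 30 of 132 (22.7%) and 30 of 106 (28.3%) respiratory chain clusters of replicates 1, 2 and 3, where the background was 10.6%, 9.86% and 13.1%. Wilson 95% intervals were 21.6% to 38.5%, 16.4% to 30.6% and 20.6% to 37.5%, which cover counting error only. The median number of edited reads was 4, 3 and 3.5 in the respiratory chain genes and 2 in each replicate over all clusters. At 4 to 10 edited reads, 30.4% ± 6.61 (SD, n = 3 replicates, 107 clusters) of the respiratory chain clusters were found in all 3 libraries, against 27.3% ± 5.92. At 11 or more edited reads it was 71.6% ± 4.14 (70 clusters) against 80.0% ± 3.71, and at 3 edited reads 15.5% ± 2.16 against 9.40% ± 3.38. With 1 or 2 edited reads the shares were 2.78% ± 4.81 and 1.52% ± 2.62 against 2.24% ± 0.490 and 4.06% ± 1.44. Within these classes the respiratory chain genes were on neither side of all clusters throughout, being higher at 1, 3 and 4 to 10 edited reads and lower at 2 and at 11 or more.

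**Figure D3:**
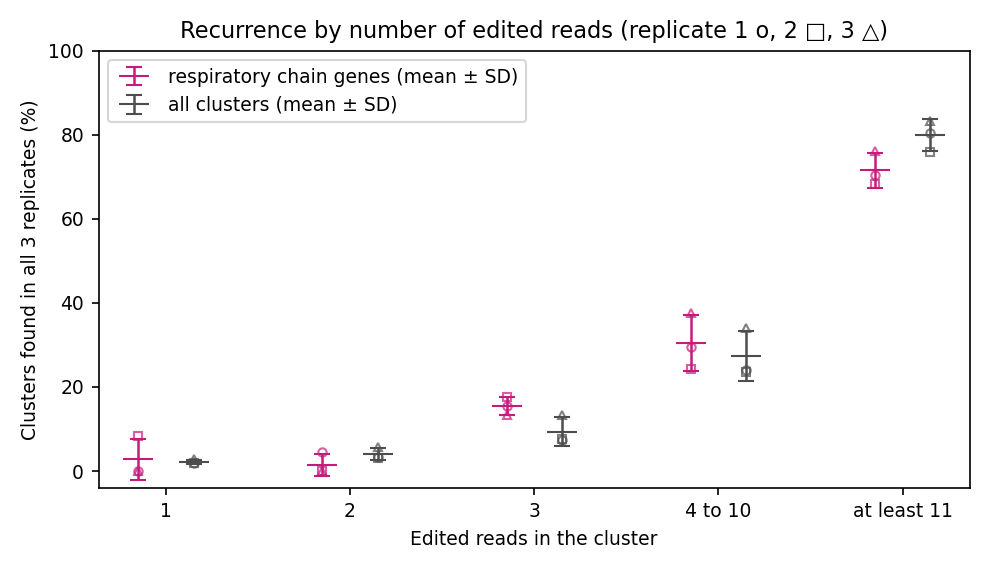
Share of clusters found in all 3 replicates (percent, y axis) by the number of edited reads in the cluster (x axis), for respiratory chain genes and for all clusters, with a symbol for each replicate and bars for mean ± SD over 3 replicates. Both sets climb from under 5% at 1 or 2 edited reads to 71.6% and 80.0% at 11 or more.

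At the level of genes, 46 of the 74 (62.2%) had a cluster somewhere in the transcript in all 3 replicates, where the background over all gene names was 37.9%. To show which nuclear genes of the chain were left without a cluster, the symbols were set against a list of 106 respiratory chain genes. Every one of the 4 subunits of complex II had a cluster, as had 7 of 9 in complex III, 12 of 15 in complex V, 26 of 37 in complex I, 8 of 17 in complex IV and 16 of 19 assembly factors. The missing members of complex IV include isoforms made mainly in other tissues, such as COX4I2, COX6A2, COX6B2, COX7A1, COX7B2 and COX8C, but also COX5B, COX6B1 and COX8A, which most cells make. In complex III, UQCRC1, a core protein, and CYC1, which carries the haem of cytochrome c1, had no cluster, and in complex V the delta subunit gene ATP5D, the c subunit gene ATP5G1 and ATP5I had none. In complex I no cluster lay in NDUFA3, NDUFA13, NDUFB6, NDUFB7, NDUFB9, NDUFB11 or NDUFS4 to NDUFS8. COX14, COX18 and NDUFAF8 were the assembly factors without one, and UQCRHL, ATP5L2, ATP5S and COX4NB, which match the name stems but were not counted as subunits or assembly factors, had none either. Absence from the list says only that no window passed the caller's threshold. Many genes of the chain have near-identical processed pseudogenes or paralogs, and their counts are uncertain where the aligner could have placed a read at either copy.

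**Figure D4:**
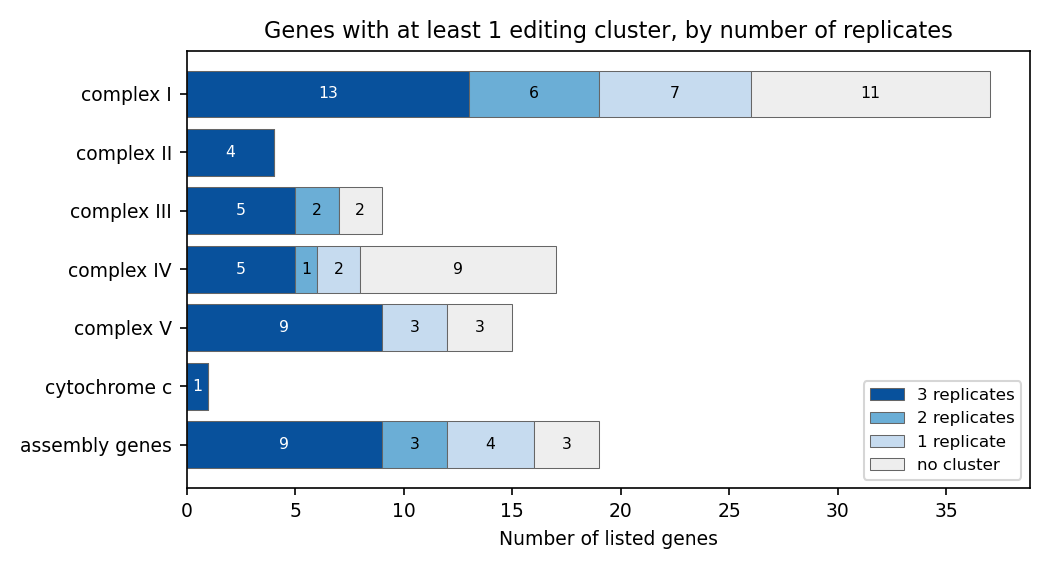
Number of listed respiratory chain genes (x axis) with at least 1 cluster in 3, 2, 1 or 0 replicates, as stacked bars by complex. All 4 genes of complex II had clusters in 3 replicates, whereas 9 of 17 genes of complex IV and 11 of 37 of complex I had no cluster.

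Most clusters lay in exons, nearly as often as over all clusters, and those on the minus strand lay in the exon numbered 0 less often than the background. An exon was annotated for 106 of 109 (97.2%), 129 of 132 (97.7%) and 102 of 106 (96.2%) clusters, and an intron for 10 of 347 (2.88%), where the background was 2.11%. In the files the number of a feature rises with its coordinate in every one of 3609 genes with several numbers, so that on the minus strand lower numbers lie towards the 3′ end. Whether the exon numbered 0 is a gene's own last exon was not checked, so the shares below describe the label only. Of 193 minus-strand clusters of the respiratory chain genes 94 (48.7%) lay in the exon numbered 0, where the background was 59.5%. Among minus-strand clusters found in all 3 replicates it was 35 of 51 (68.6%), where the background was 70.4%. Edited bases per edited read came to 1.449, 1.504 and 1.592 in replicates 1, 2 and 3, against 1.593, 1.665 and 1.663 over all clusters. The respiratory chain genes were lower in every replicate, but their highest value lay just under the lowest over all clusters.

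The few intronic clusters were weakly supported. Of the 10, 8 also carried the name of another gene, and none was found in all 3 replicates. NDUFA7, an accessory subunit of complex I, had the same intronic interval in replicates 1 and 3, chr19:8385880-8385925, shared with CD320, with 2 edited bases in 83 and 2 in 92 covered C bases (2.41% and 2.17%). UQCR11, a small subunit of complex III, had intronic clusters in replicates 2 and 3 at separate places, all shared with MBD3 and a clone-named gene, with 2 edited reads in each. Over exons and introns together, 43 clusters (12.4%) named several genes, where the background was 6.30%. They include the 8 clusters of COX7C and 5 of NDUFB5, a complex I subunit.

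Some clusters rested on 1 read. In 53 of 347 clusters (15.3%) a single read was edited, where the background was 30.5%, and 20 of these (5.76% of the 347, background 12.9%) had at least 3 edited bases on that read. The most was 8 edited bases on 1 read, seen in an intron of COX16, a complex IV assembly factor, and in an exon of NDUFV2. The caller's score, a cumulative probability set by the authors against the mean edit fraction of the called clusters, was at least 0.99 in 217 clusters (62.5%), where the background was 60.6%. With a score of at least 0.99 the median edit fraction, as mean over replicates, was 0.976% against 0.890% without that limit. Over all clusters it was 2.27% against 1.70%. Single clusters could still combine a high score with a low edit fraction. The recurring ATP5E cluster of replicate 3 had 0.382% and a score of 0.9998, while an exonic NDUFB8 cluster of replicate 2 had 12.5% and 0.985.

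In 21 clusters (6.05%) of 12 genes the deposited depth and the coverage of C bases did not go together, where the background was 1.25%. Their mean read depth was at least 10 times the number of covered bases per C, while the median of that ratio over the respiratory chain clusters was 1.00 and none had a ratio between 5 and 10. Depths were 62.2 to 1218 reads and coverage 1.14 to 61.9 per C base. In replicate 1, a cluster in ATP5E had a depth of 1218 reads against 5.07 covered bases per C, and in replicate 2 a cluster in NDUFB8, of complex I, had 455 against 1.14. COX4I1, the regulatory subunit IV of complex IV, had 5 such clusters over the 3 replicates and ATP5B had 3. Of the 21, 12 had 1 edited read and are among the 53 above, 20 had at most 3 edited reads, 16 were annotated as exonic and 0 were found in all 3 replicates. Their edit fractions ran from 0.538% to 12.5% with a median of 3.70%, above the median of the respiratory chain clusters as a whole. All 21 had a depth of at least 50 reads, so they stand in the deepest class above. Without them the median edit fraction of the respiratory chain genes was 0.825% ± 0.0486 (SD, n = 3) and 42 genes in place of 46 had a cluster in all 3 replicates. Why the 2 columns part there was not tested.

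**Figure D5:**
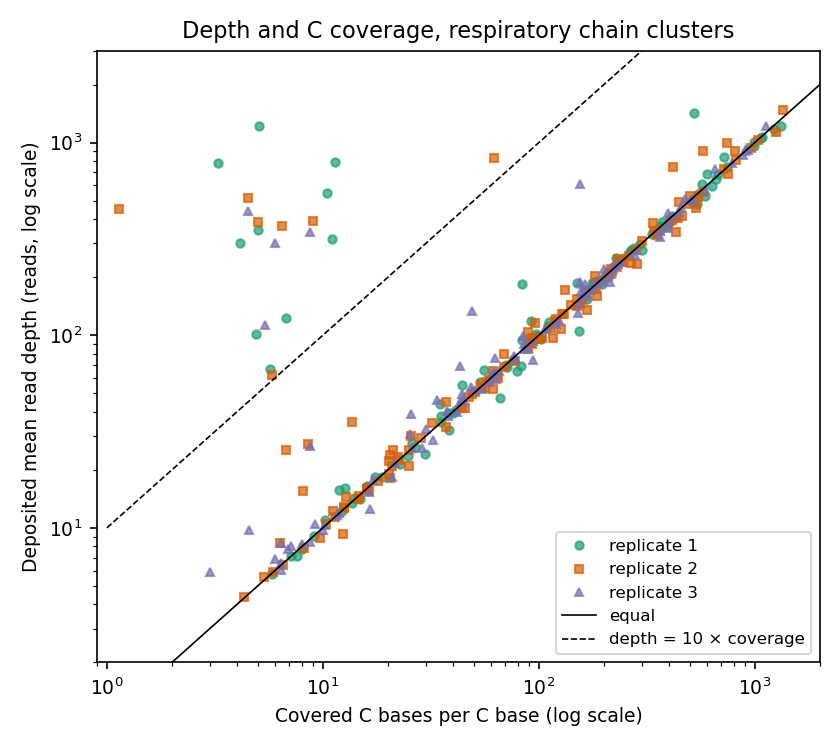
Mean read depth as deposited (reads, y axis, log scale) against covered C bases per C base (x axis, log scale) for the 347 respiratory chain clusters, with a symbol for each replicate, a solid line for equal values and a dashed line at a depth of 10 times the coverage. Nearly all clusters follow the solid line, and 21 stand on or above the dashed one.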

How the data were processed

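RNA was sequenced from 3 replicates of 1 group. The authors called C-to-U positions per replicate with SAILOR, which drops common SNPs, and ran FLARE, whose file names give a merging distance of 15 and an adjusted p threshold of 0.1. Replicates were not pooled. The submitters' processing notes name STAR and hg19, and versions are not given in the sources used here. Each deposited cluster comes with unscaled counts: its C bases, the C bases covered by reads, those edited, its reads and its edited reads. The authors' edit fraction and fraction of edited reads are ratios of those counts and are printed as percent. Read depth, averaged over a cluster by the authors, is a coverage signal without scaling. The score of the authors is a cumulative probability.

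Members and gene lists were chosen with earlier results of these data known, so no test was run on the members as a set. All 74 symbols matched RefSeq (GRCh38.p14), 14 of them as older names. A cluster with several gene names counted if any matched. Medians and shares were taken per replicate with pandas 2.3.3, NumPy 2.4.6 and SciPy 1.17.1 under Python 3.11.15 (figures with matplotlib 3.10.9), as mean and SD over 3 replicates. The study calls the replicates biological, but the labels name no separate cultures, so the spread may be technical. Shares have Wilson 95% intervals. Reads carry no molecular identifiers, so intervals cover counting error only. The deposited clusters are not whole libraries: the members held 1134, 1126 and 823 edited reads in 280044, 294517 and 230255 covered C bases, and library depth was not used here.

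Libraries were compared per locus by the exact conditional test, with Benjamini-Hochberg adjustment over all 174 loci. Tested on binomial draws at those loci, it called 11 of 174 loci without a difference at p under 0.05. In a further draw the edited share of replicate 1 was raised 3-fold at 40 loci, with a cap. Where the share was already high, the cap made the change smaller than 3-fold. Of these, 26 of 40 were recovered at an adjusted p under 0.05, and 2 of 134 unchanged loci were called. The draws held no spread between libraries beyond counting error, so they do not give error rates for real libraries. Genes named are those with a cluster found in all 3 replicates, the 5 with the most edited reads, those with intronic clusters in at least 2 replicates, the 3 highest and 3 lowest recurring loci, and genes without a cluster. CYCS, SDHA, SDHC, SDHD, COX4I1, COX16, NDUFB5, NDUFB8, NDUFS1, NDUFS3, NDUFV1 and NDUFV2 were named after their values were seen, as were the finer coverage classes and the ratio of depth to coverage. Alternatives were minimum scores, depths and edited reads, subunits alone, means, 1 value per gene, a stricter overlap, and leaving out each replicate.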

Additional observations from a re-analysis of the deposited data

How the results depend on the processing

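The 9 results were recomputed in 69 alternative values, of which 24 left out 1 replicate and 45 changed another choice. Of the 45, 25 stayed within the spread between replicates or within 1.5 times a count, and 20 moved. With a score of at least 0.99, the clusters per replicate came to 72.3, the median edit fraction to 0.976%, the largest difference in pooled edit fraction between complexes I to V to 0.517 percentage points (from 0.288) and the genes with clusters in all 3 replicates to 30. With a depth of at least 50, the median edit fraction was 0.638%, the median depth 215, the share found in all 3 replicates 36.2%, the exon share 97.9% and the share with 1 edited read 5.80%. With subunits and carriers alone, the median edit fraction was 0.750% and the median depth 174. With at least 2 edited reads they were 0.745% and, for the exon share, 97.9%. Means in place of medians gave 1.63% and a depth of 230, and 1 value per gene gave 0.746%. Requiring 50% of each cluster to overlap lowered the share found in all 3 replicates to 15.1%, against 5.30% over all clusters. Leaving out the clusters of depth at least 10 times coverage, chosen after seeing the data, gave a median edit fraction of 0.825% and an exon share of 98.5%. At an adjusted p under 0.01, 2 loci of the series differed between libraries.

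Leaving out each replicate in turn gave 107.5 to 120.5 clusters, a median edit fraction of 0.864% to 0.911%, a median depth of 102 to 133, an exon share of 96.7% to 97.5%, a share with 1 edited read of 13.5% to 16.6% and a difference between complexes of 0.260 to 0.314 percentage points. The share found in both remaining replicates was 37.7% to 38.7%, higher because only 1 other library has to hold the cluster, and 2 to 4 loci differed between libraries, with 2 when replicate 1 was left out. No paired analysis was possible because the series has 1 group. Under every alternative for the median edit fraction, respiratory chain genes lay below all clusters. Depth limits these values: 170 of 347 clusters had at most 3 edited reads.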

Other observations

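Clusters also lay in related genes whose symbols the choice left out. Of 55 such symbols (other assembly factors, small subunits under other names, and 9 regulators of mitochondrial gene expression), 39 had a cluster. UQCC, without a cluster, is an older symbol of UQCC1, which had clusters, so the symbols slightly outnumber the genes. Genes without a cluster are not listed for the series as a whole, so 39 of 55 has no background beside it. Of these 39, 18 (46.2%) had one in all 3 replicates and 7 (17.9%) had one that overlapped clusters of both other replicates, where the background over all gene names was 37.9% and 12.9%. The 7 were HIGD1A, C14orf2, ATPIF1, CMC2, TIMMDC1, TFAM and HIGD2A. HIGD1A, which binds complex IV, had the most edited reads of these, with 44, 42 and 17 in replicates 1, 2 and 3, and pooled edit fractions of 0.744%, 1.06% and 0.846% (mean 0.882% ± 0.160, SD, n = 3). ATPIF1, which inhibits the reverse reaction of ATP synthase, had 2.28%, 1.59% and 1.62% (mean 1.83% ± 0.392), and TFAM, the transcription factor that packages mitochondrial DNA, had 1.43%, 1.71% and 2.57% (mean 1.91% ± 0.593). The values of ATPIF1 and TFAM overlapped each other and lay above those of HIGD1A in every replicate.

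The processed pseudogene COX6A1P2, left out by its symbol, had 6 clusters over the 3 replicates on chromosome 6. At chr6:37013132-37013177, 4 of 19 reads were edited in replicate 2 (edit fraction 7.02%) and 3 of 30 in replicate 3 (3.33%). Reads of a pseudogene and of its parent COX6A1 can be hard to separate by alignment, and how the aligner placed them was not tested, so the values of both are uncertain.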
